A study of Mus musculus with 24 samples.

Results

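Transcripts of the fatty acid elongases Elovl1, Elovl2, Elovl3, Elovl5 and Elovl6 and of the fatty acid desaturases Fads1, Fads2, Fads3, Scd1 and Scd2 were examined in mouse liver. They were found by gene name among the probes of the array, and each gene was read from its brightest probe over the 24 arrays. All 10 were found among the 37074 gene names on the array, and all 10 were among the 21372 genes bright enough to be tested.

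Liver mRNA was measured on 1-colour Agilent arrays, 1 array per mouse, to see how hepatocyte p110α bears on the response of the liver to feeding and fasting. p110α, encoded by Pik3ca, is a catalytic subunit of phosphoinositide 3-kinase and lies downstream of the insulin receptor. All mice were males of 12 weeks, carried floxed p110α alleles and were killed at ZT16, which is 16 h after lights on. LWT mice (p110αhep+/+) had no Cre recombinase. LKO mice (p110αhep-/-) also carried albumin-Cre, which acts in hepatocytes. Whether the other cells of their livers keep p110α was not examined here. Each genotype was either fed ad libitum or left without food for 24 h, which gave the groups LWT_Fed, LWT_Fasted, LKO_Fed and LKO_Fasted with 6 mice each.

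Fatty acid synthase makes palmitate, and longer or less saturated chains depend on the enzymes described here. The ELOVL proteins catalyse the first, condensing step of each round of chain elongation in the endoplasmic reticulum. SCD enzymes place the first double bond in saturated acyl-CoAs, whereas FADS enzymes add further double bonds on the way to polyunsaturated fatty acids. In liver many of these genes are known targets of SREBP-1c, which insulin raises after feeding, of LXR and ChREBP, or of PPARα, which acts in fasting.

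Values are normalized log2 signals of a probe. They compare groups for 1 gene and do not rank genes against each other. Probe positions are those of the files, and their place in exons or untranslated regions was not examined here. The share of spots that stood well above background ran from 54.7% to 63.0% over the arrays, and no spot was saturated. The probe of each of the 10 genes was well above background on 6 of 6 arrays in every group. Hepatocyte markers such as albumin showed the labelled tissue, with a log2 of their summed signal between 20.76 and 20.86 over all arrays. The mean of the Pik3ca probe was 11.91 in LWT_Fed and 12.54 in LKO_Fed (log2 fold change 0.58, adjusted p = 0.00146), and 12.28 and 12.26 in the fasted groups. The fasted difference was -0.02 (adjusted p = 0.93), so the probe was not called lower in LKO in either feeding state. Its place relative to the deleted exons was not examined here, so it does not check the genotype labels. On the second principal component LKO_Fasted replicates 1 and 2 lay at 35.1 and 31.3, apart from the other 4 arrays of their group at 1.40 to 2.92. LKO_Fasted replicate 4 stood apart for Elovl3 and other sex-biased genes, as given with Elovl3.

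A gene was called if its adjusted p from limma was at most 0.05 and its fold change above 1.5. Fasting in LWT changed 6 of the 10 genes. Elovl3 rose, against 4.82% of all tested genes called higher, and Elovl1, Elovl6, Fads3, Scd1 and Scd2 fell, against 5.22% called lower. In LKO fasting changed 9 genes. Elovl2, Elovl3, Elovl5 and Fads2 rose, against 5.9% of all genes, and the same 5 genes as in LWT fell, against 6.88%. The median log2 fold change of the 10 genes was -0.50 in LWT and -0.41 in LKO, beside -0.01 and -0.02 over all genes.

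Genotype was compared within each feeding state. In fed mice Elovl5, Elovl6 and Scd1 were lower in LKO, against 1.18% of all genes, and none of the 10 was called higher, against 2.66%. In fasted mice Elovl5 and Elovl6 were higher in LKO, against 1.78%, and Scd1 and Scd2 were lower, against 2.28%. The median was -0.21 in fed mice and 0.16 in fasted mice, beside -0.014 and -0.0041 over all genes. The interaction, the log2 change with fasting in LKO less the one in LWT, was called above 0 for Elovl5, Elovl6 and Fads2, against 1.55% of all genes, and called below 0 for none of the 10, against 1.55%. These comparisons share groups of mice, so their values are given side by side and not as independent evidence.

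**Figure D1:**
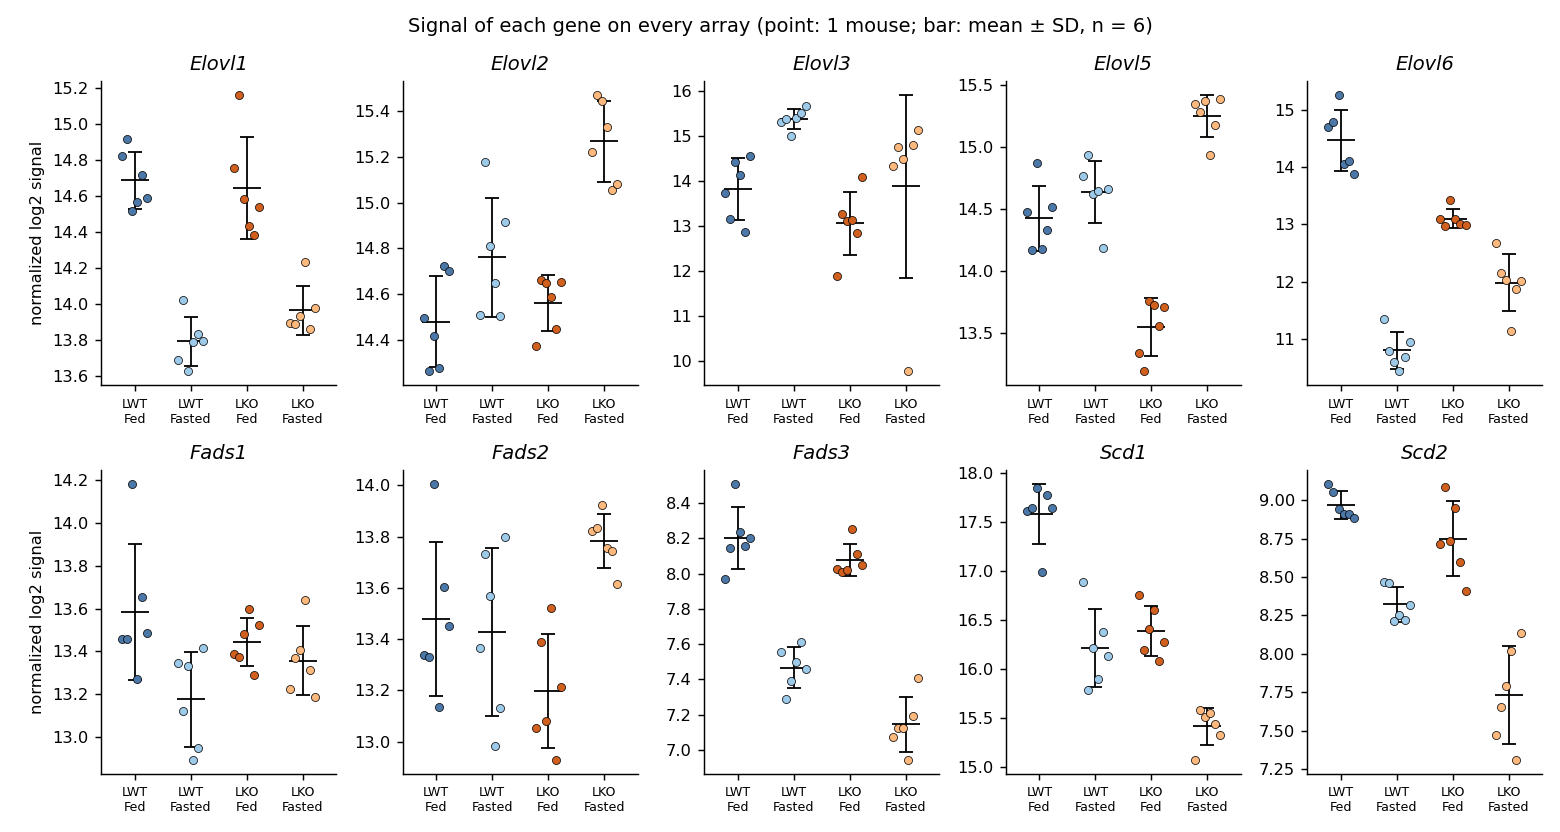
Normalized log2 signal of each gene (vertical axis, own scale per panel) on each array of the 4 groups, with 1 point per mouse and the mean ± SD as a bar (n = 6). Elovl6 is highest in LWT_Fed and lowest in LWT_Fasted with both LKO groups between them, Elovl5 is lowest in LKO_Fed and highest in LKO_Fasted, and 1 LKO_Fasted array lies far below the others for Elovl3, at 9.76.

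Elovl6 elongates palmitate to stearate and is a known target of SREBP-1c. Its probe (NM_130450) lies at chr3:129337756-129337815 of mm9 on the plus strand. In LWT the 6 fed arrays ranged from 13.87 to 15.26 with a median of 14.40, and the 6 fasted arrays from 10.44 to 11.35 with a median of 10.74. In LKO the fed arrays ranged from 12.98 to 13.43 with a median of 13.05, and the fasted arrays from 11.13 to 12.67 with a median of 12.02. Fed and fasted arrays did not overlap in either genotype. The fed LKO arrays lay below all fed LWT arrays, and the fasted LKO arrays lay above the fasted LWT arrays except that LKO_Fasted replicate 4, at 11.13, fell within their range.

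Fasting lowered Elovl6 11.7-fold in LWT (log2 fold change -3.55, SE 0.189, adjusted p = 7.17e-12) and 2.14-fold in LKO (-1.10, SE 0.209, adjusted p = 0.000198). In fed mice Elovl6 was 2.31-fold lower in LKO than in LWT (adjusted p = 0.000313), and in fasted mice it was 2.37-fold higher (1.24, adjusted p = 0.000206). The latter stayed between 1.08 and 1.34 on the log2 scale, and called, with any single array left out. The interaction was 2.45 on the log2 scale (SE 0.281, adjusted p = 3.7e-05), with 2.48, 2.66 and 2.49 within the 3 slides. There the fed difference was -1.70, -1.68 and -0.71, and the fasted difference 0.78, 0.98 and 1.78. By group mean the order was LWT_Fed, LKO_Fed, LKO_Fasted and LWT_Fasted, and each step between neighbours was called. The tissue is a mix of cells, so fewer cells of a type and less RNA per cell cannot be told apart.

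Elovl5 elongates polyunsaturated fatty acids, mainly those of middle length. It was read at chr9:77832205-77832264 of mm9, plus strand (NM_134255). Fed LWT arrays ranged from 14.17 to 14.87 with a median of 14.40, and fasted LWT arrays from 14.19 to 14.93 with a median of 14.65. Fed LKO arrays ranged from 13.20 to 13.76 with a median of 13.64, and fasted LKO arrays from 14.94 to 15.38 with a median of 15.31. The LWT groups overlapped nearly completely, whereas the LKO groups lay wholly below and wholly above both of them.

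Elovl5 rose 3.31-fold with fasting in LKO (1.73, SE 0.131, adjusted p = 8.52e-10). In LWT its log2 fold change was 0.23 with a 95% confidence interval from -0.02 to 0.48 (adjusted p = 0.13). It was 1.74-fold lower in LKO than in LWT in fed mice (-0.80, adjusted p = 0.000201) and 1.62-fold higher in fasted mice (0.70, adjusted p = 0.000581). The interaction of 1.499 (SE 0.177, adjusted p = 4.13e-05) ranged from 1.46 to 1.56 within slides. Within the 3 slides the fed difference was -1.14, -0.88 and -0.61, and the fasted difference 0.31, 0.58 and 0.95. In the order of means, LKO_Fasted, LWT_Fasted, LWT_Fed and LKO_Fed, the LWT groups were the neighbours that did not differ beyond their spread. With the mean of all Elovl5 probes in place of the brightest, the fed difference between genotypes was -0.58, just under the fold required.

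Fads2, the delta-6 desaturase that starts the synthesis of long polyunsaturated fatty acids from linoleic and alpha-linolenic acid, moved less. Its probe (NM_019699) spans chr19:10138750-10139180 of mm9 on the minus strand, a stretch longer than the probe itself. The arrays ranged from 13.14 to 14.01 with a median of 13.40 in LWT_Fed and from 12.98 to 13.80 with a median of 13.47 in LWT_Fasted. In LKO they ranged from 12.93 to 13.52 with a median of 13.15 when fed and from 13.62 to 13.92 with a median of 13.79 when fasted. The LKO groups were separate, while the LWT groups overlapped.

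Fads2 rose 1.52-fold with fasting in LKO (0.60, SE 0.125, adjusted p = 0.000489), and its log2 fold change in LWT was -0.01 with a 95% confidence interval from -0.24 to 0.23. The interaction was 0.61 (SE 0.168, adjusted p = 0.0301). Both calls lie close to the limits. The first was lost without LKO_Fed replicate 1, 5 or 6 or LKO_Fasted replicate 1 or 3, with values of 0.55 to 0.58. The interaction was not called without LKO_Fed replicate 3, 5 or 6, LKO_Fasted replicate 3, LWT_Fed replicate 5 or 6 or LWT_Fasted replicate 1, 4 or 5, with values of 0.51 to 0.62. Background correction by normexp ended both, at 0.58 and 0.58, as did the mean of all probes, at 0.55 and 0.496. Scaling to the 75th percentile ended the first, at 0.58, and leaving out the filter on dim probes ended the interaction (0.62, adjusted p = 0.0545). Fasted LKO arrays exceeded fasted LWT arrays by 0.41 (adjusted p = 0.022), which did not reach the fold required, and the fed difference was -0.20 with a 95% confidence interval from -0.44 to 0.04.

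**Figure D2:**
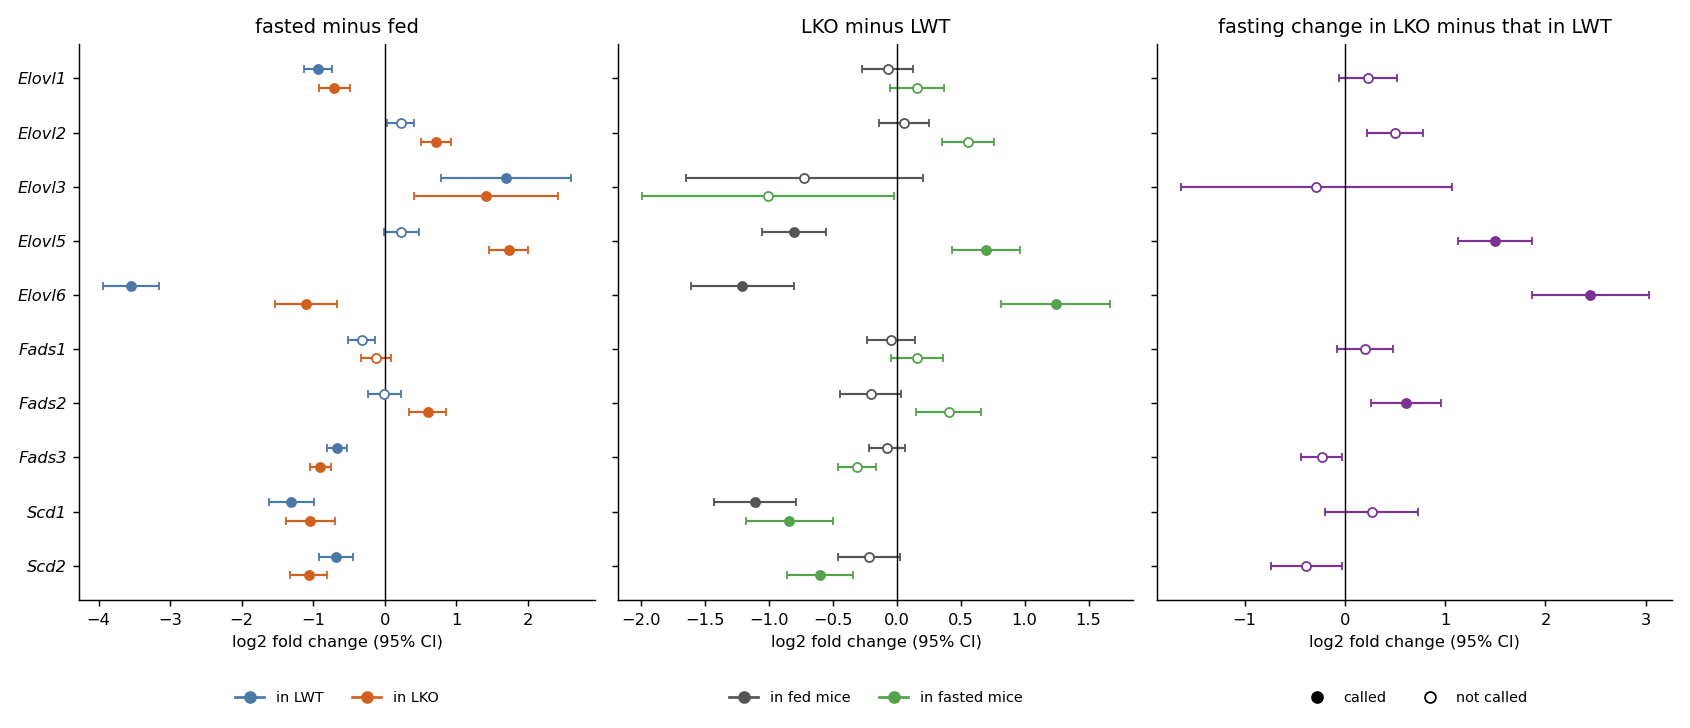
Log2 fold change with its 95% confidence interval (horizontal axis) for each gene, as fasted minus fed in LWT and LKO (left), LKO minus LWT in fed and fasted mice (middle) and the interaction (right), with filled points for called values. The interaction stands clear of 0 for Elovl6 at 2.45 and Elovl5 at 1.499, and the intervals of Elovl3 are the widest of the 10 genes.

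Because Elovl5, Elovl6 and Fads2 were the genes with a called interaction, the 250 bases before their start sites are shown, from the RefSeq promoter table of build GRCm38.p6, 5′ to 3′ on the strand of the gene. The Elovl5 stretch is chr9:77917115-77917364 (plus strand), that of Elovl6 is chr3:129532136-129532385 (plus strand) and that of Fads2 is chr19:10101504-10101753 (minus strand). Capitals mark matches on either strand to any of 5 motifs that were searched, none of which overlap another match in these 3 sequences.

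Elovl5: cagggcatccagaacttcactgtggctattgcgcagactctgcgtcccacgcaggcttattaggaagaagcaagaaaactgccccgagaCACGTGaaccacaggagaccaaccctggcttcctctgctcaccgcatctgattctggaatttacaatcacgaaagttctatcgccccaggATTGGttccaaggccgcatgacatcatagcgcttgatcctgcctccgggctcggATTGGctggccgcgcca

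Elovl6: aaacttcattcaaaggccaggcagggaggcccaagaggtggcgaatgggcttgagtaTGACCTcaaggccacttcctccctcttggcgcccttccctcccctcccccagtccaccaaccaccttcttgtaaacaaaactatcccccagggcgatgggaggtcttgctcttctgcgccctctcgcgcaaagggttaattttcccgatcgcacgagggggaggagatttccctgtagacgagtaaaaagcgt

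Fads2: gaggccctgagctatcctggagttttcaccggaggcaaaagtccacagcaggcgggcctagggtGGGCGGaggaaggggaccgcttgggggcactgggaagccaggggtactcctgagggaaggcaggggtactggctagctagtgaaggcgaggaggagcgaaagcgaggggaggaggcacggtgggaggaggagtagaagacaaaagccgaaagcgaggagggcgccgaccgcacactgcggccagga

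The table held 6 of the 10 genes, namely Elovl1, Elovl2, Elovl5, Elovl6, Fads2 and Fads3, in 8 windows. The sterol regulatory element core TCACNCCAC was in none of the 8 windows and in 1.05% of all 32851 promoters of that length. The E-box CACGTG was in the window of Elovl5, 161 bases before the start, and in 6.02% of all promoters. CCAAT, the NF-Y box, matched at 71 and 17 bases before the Elovl5 start and also in windows of Elovl1 and Fads3, against 33.8% of all promoters. The half-site AGGTCA of nuclear receptors matched 193 bases before the Elovl6 start and in 1 window of Elovl1, against 14% of all promoters. GGGCGG, a GC box, matched 186 bases before the Fads2 start and in windows of Elovl1, Elovl2 and Fads3, against 32.7% of all promoters. In 1 Elovl1 window a CCAAT match overlapped a GGGCGG match. A match is a stretch of letters and does not show a bound site, and the absence of a match covers only these windows.

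Elovl2 elongates long polyunsaturated fatty acids on the way to docosahexaenoic acid, and it had 1 probe (NM_019423, chr13:41277884-41277943 of mm9, minus strand). In LWT it ranged from 14.26 to 14.72 with a median of 14.45 when fed and from 14.50 to 15.18 with a median of 14.73 when fasted. In LKO it ranged from 14.37 to 14.66 with a median of 14.62 when fed and from 15.05 to 15.47 with a median of 15.28 when fasted. All fasted LKO arrays lay above all fed arrays of either genotype, and 1 fasted LWT array reached into their range.

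Elovl2 rose 1.65-fold with fasting in LKO (0.72, SE 0.101, adjusted p = 5.56e-06). In LWT its log2 fold change was 0.22 with a 95% confidence interval from 0.03 to 0.41 (adjusted p = 0.0583). In fasted mice it was higher in LKO by 0.56 (SE 0.099, adjusted p = 0.000404), a 1.47-fold difference under the fold required, and without LWT_Fasted replicate 3, LKO_Fasted replicate 5 or LKO_Fasted replicate 6 the value became 0.61, 0.60 and 0.60 and passed. The interaction of 0.50 (adjusted p = 0.0285) was likewise under 1.5-fold. In fed mice the genotypes differed by 0.06 with a 95% confidence interval from -0.13 to 0.25.

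Fads1, the delta-5 desaturase that acts after Fads2 and makes arachidonic acid among others, was called in no comparison. It was read at chr19:10270530-10270589 of mm9, plus strand (NM_146094). Its median was 13.47 in LWT_Fed, 13.22 in LWT_Fasted, 13.43 in LKO_Fed and 13.34 in LKO_Fasted, and the arrays of all groups together ranged from 12.89 to 14.19. Groups overlapped in every comparison. Fasting in LWT gave -0.32 (SE 0.0896, adjusted p = 0.00574), a 1.25-fold difference under the fold required. The 95% confidence interval was -0.33 to 0.08 for fasting in LKO, -0.23 to 0.15 for genotype in fed mice, -0.04 to 0.36 for genotype in fasted mice and -0.07 to 0.48 for the interaction.

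The third gene of this cluster on chromosome 19, Fads3, whose product is known to desaturate sphingoid bases, fell with fasting in both genotypes (NM_021890, chr19:10132641-10132700 of mm9, plus strand). Fed and fasted arrays ranged from 7.97 to 8.51 with a median of 8.18 and from 7.29 to 7.61 with a median of 7.48 in LWT. They ranged from 8.01 to 8.25 with a median of 8.04 and from 6.94 to 7.41 with a median of 7.12 in LKO. No fasted array of either genotype reached any fed array.

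The fall of Fads3 was 1.59-fold in LWT (-0.67, SE 0.066, adjusted p = 4.95e-08) and 1.87-fold in LKO (-0.90, SE 0.0729, adjusted p = 2.16e-09). Fasted LKO arrays were below fasted LWT arrays by a further -0.31 (adjusted p = 0.00395), a 1.24-fold difference under the fold required. The interaction was -0.23 with a 95% confidence interval from -0.43 to -0.03 (adjusted p = 0.163), and the fed difference was -0.08 with an interval from -0.22 to 0.06. With the mean of both Fads3 probes the LWT fall was -0.51, which no longer passed the fold required.

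Elovl1, which elongates saturated and monounsaturated acyl-CoAs to very long chains and serves sphingolipid synthesis, also fell with fasting in both genotypes (NM_001039176, chr4:118105163-118105222 of mm9, plus strand). In LWT fed arrays ranged from 14.52 to 14.92 with a median of 14.65, and fasted arrays from 13.63 to 14.02 with a median of 13.79. In LKO fed arrays ranged from 14.38 to 15.16 with a median of 14.56, and fasted arrays from 13.86 to 14.23 with a median of 13.91. Feeding states were separate in both genotypes, and genotypes overlapped in both feeding states.

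The fall of Elovl1 was 1.92-fold in LWT (-0.94, SE 0.0936, adjusted p = 5.99e-08) and 1.63-fold in LKO (-0.71, SE 0.103, adjusted p = 9.43e-06). Genotype differences were -0.07 in fed mice (95% confidence interval -0.27 to 0.13) and 0.16 in fasted mice (-0.05 to 0.37). The interaction of 0.23 had an interval from -0.06 to 0.52.

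Scd1, the main stearoyl-CoA desaturase of liver, which makes oleate and palmitoleate, was lower with fasting and lower in LKO (NM_009127, chr19:44469387-44469446 of mm9, minus strand). The fed and fasted arrays of LWT ranged from 16.99 to 17.84 with a median of 17.64 and from 15.78 to 16.89 with a median of 16.17. The fed and fasted arrays of LKO ranged from 16.08 to 16.75 with a median of 16.34 and from 15.08 to 15.58 with a median of 15.48. LWT_Fed arrays lay above all others and LKO_Fasted arrays below all others, while LWT_Fasted and LKO_Fed arrays covered much the same range.

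With fasting Scd1 fell 2.47-fold in LWT (-1.31, SE 0.151, adjusted p = 4.74e-07) and 2.06-fold in LKO (-1.04, SE 0.167, adjusted p = 2.99e-05). It was 2.15-fold lower in LKO in fed mice (-1.10, adjusted p = 0.000103) and 1.79-fold lower in fasted mice (-0.84, adjusted p = 0.000953). The interaction was 0.27 with a 95% confidence interval from -0.20 to 0.73, and it ran from -0.13 to 1.19 within slides. Within the 3 slides the fall in LKO was -0.67, -0.94 and -1.31, and the fasted difference -0.39, -1.07 and -0.94. Scd1 and Elovl6 thus both fell with fasting and both were lower in fed LKO mice, but in fasted LKO mice Scd1 was below LWT and Elovl6 above it.

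Scd2, a stearoyl-CoA desaturase known mainly from brain and from developing tissues, gave a dimmer signal on the same chromosome (NM_009128, chr19:44381024-44381083 of mm9, plus strand). It ranged from 8.89 to 9.11 with a median of 8.93 in LWT_Fed and from 8.21 to 8.47 with a median of 8.29 in LWT_Fasted. In LKO_Fed it ranged from 8.41 to 9.09 with a median of 8.73, and in LKO_Fasted from 7.31 to 8.14 with a median of 7.72. Fasted arrays lay below fed arrays in both genotypes, and the fasted LKO arrays lay below the fasted LWT arrays.

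Scd2 fell 1.60-fold with fasting in LWT (-0.68, SE 0.114, adjusted p = 5.06e-05) and 2.09-fold in LKO (-1.06, SE 0.126, adjusted p = 5.34e-07). In fasted mice it was 1.52-fold lower in LKO (-0.60, SE 0.123, adjusted p = 0.00147), close to the fold required. That call was lost without LKO_Fasted replicate 1 (-0.55), LKO_Fasted replicate 2 (-0.58), LKO_Fasted replicate 5 (-0.52) or LWT_Fasted replicate 1 (-0.57). It was also lost without LKO_Fasted replicates 1 and 2 together (-0.54, adjusted p = 0.0134), a setting that changed no other call of the 10 genes, and with normexp background correction (-0.55, adjusted p = 0.0016). The fed difference was -0.22 with a 95% confidence interval from -0.46 to 0.03, and the interaction was -0.38 with an interval from -0.74 to -0.03 (adjusted p = 0.176).

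Adipose tissue also uses stearoyl-CoA desaturases, and 2 of its markers, Cfd and Cidea, differed between genotypes. Of 7 adipocyte markers 6 were tested, and Adipoq was too dim to be. The log2 of their summed signal ranged from 9.43 to 10.53 in LWT_Fed, 9.16 to 12.55 in LWT_Fasted, 8.99 to 9.18 in LKO_Fed and 8.99 to 9.38 in LKO_Fasted. In LKO 1 of the 6 was lower in fed mice, against 1.18% of all genes, and 2 were lower in fasted mice, against 2.28%. Cfd was among them both times (-2.76, adjusted p = 0.0123, and -3.00, adjusted p = 0.008) and Cidea in fasted mice (-1.35, adjusted p = 0.0118). The other 4 were not called. Lep, Plin1 and Retn differed by -0.18 to 0.0011 over both feeding states, and Slc36a2 was above 0, at 0.19 in fed mice (adjusted p = 0.0494, under the fold required) and 0.11 in fasted mice. The median over the 6 was -0.13 in both states.

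Markers of other liver cells differed too. The log2 of the summed signal of 5 cholangiocyte markers, genes of the bile duct lining, ranged from 11.03 to 11.74 in LWT_Fed and from 9.61 to 10.84 in LKO_Fed, and from 10.75 to 11.10 in LWT_Fasted and from 8.99 to 10.197 in LKO_Fasted. The genotypes did not overlap in either state. Of the 5 only Spp1 was called, at -1.5001 in fed mice (adjusted p = 0.00025) and -2.10 in fasted mice (adjusted p = 5.49e-06), and the other 4 lay between -0.57 and -0.15. Of 6 markers of sinusoidal endothelium Lyve1 was lower in fed LKO mice (-0.88, adjusted p = 0.0405). Of 4 erythroid markers tested Alas2 was lower in LKO in both states (-0.796 and -0.83). The median over the 4 was -0.34 in fed and 0.44 in fasted mice. Of 3 pancreatic markers tested Cela2a was higher in LKO (0.82 and 0.63), whereas the median over the 3 was -0.13 and -0.31. No marker of Kupffer cells, stellate cells or hepatocytes was called between genotypes. With fasting the stellate marker Lrat fell in LWT (-0.896) and LKO (-0.96), whereas the median over the 6 stellate markers was 0.08 and 0.06. The cholangiocyte marker Krt19 fell in both (-0.67 and -0.59), Spp1 in LKO (-0.95) and Cela2a in both (-0.79 and -0.99). Cidea rose in LWT (1.202), beside a median over the 6 adipocyte markers of 0.0094. No marker of hepatocytes, Kupffer cells, sinusoidal endothelium or erythroid cells was called with fasting. The part of these markers in the genotype and fasting differences of Scd1, Scd2 and the other genes was not tested.

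Elovl3 elongates saturated and monounsaturated fatty acids to very long chains and is known to be higher in livers of male mice. It had 1 probe (NM_007703, chr19:46209325-46209384 of mm9, plus strand). Fed and fasted arrays of LWT ranged from 12.86 to 14.56 with a median of 13.94 and from 15.001 to 15.68 with a median of 15.39, without overlap. In LKO_Fed the arrays ranged from 11.89 to 14.09 with a median of 13.11. LKO_Fasted replicate 4 read 9.76, whereas the other 5 LKO_Fasted arrays ranged from 14.32 to 15.14 with a median of 14.77, above all fed LKO arrays.

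Elovl3 rose 3.24-fold with fasting in LWT (1.70, SE 0.437, adjusted p = 0.00334) and 2.66-fold in LKO (1.41, SE 0.483, adjusted p = 0.0229). The LKO call rested on the down-weighting of LKO_Fasted replicate 4, which had an array weight of 0.355. With all arrays weighted equally the value was 0.83 (adjusted p = 0.289), and without that array it was 1.77 (adjusted p = 8.84e-05). The call was also lost without LKO_Fed replicate 1 (1.13), LKO_Fasted replicate 3 (1.29), LKO_Fasted replicate 5 (1.23) or LKO_Fasted replicate 6 (1.29), with no filter on dim probes (1.23, adjusted p = 0.0954) and with only the LKO groups in the fit (1.36, adjusted p = 0.125). Within slides the LWT value was 1.88, 1.72 and 1.11, and the LKO value was -1.41, 2.28 and 1.62, the first on the slide that holds that array.

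Genotype differences of Elovl3 were -0.72 in fed mice (95% confidence interval -1.65 to 0.20, adjusted p = 0.299) and -1.01 in fasted mice (-1.99 to -0.02, adjusted p = 0.146). The fed value was -0.44 without LKO_Fed replicate 1, and within slides it was 0.03, -1.07 and -1.24. Without LKO_Fasted replicate 4 the fasted value was -0.64 (adjusted p = 0.143), and with equal array weights it was -1.501 (adjusted p = 0.0906). Within slides it was -3.26, -0.52 and -0.73, the first on the slide that holds that array. The interaction of -0.29 had a 95% confidence interval from -1.64 to 1.06 and was 0.09 without that array, -0.74 with equal array weights and -3.30, 0.56 and 0.51 within slides. The counts of called genes among the 10 were the same without it, at 6, 9, 3, 4 and 3.

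Other genes known to differ between male and female mouse liver were then read on LKO_Fasted replicate 4, a choice made after its Elovl3 value was seen. Of 8 genes higher in males, 6 lay below all other 5 LKO_Fasted arrays on this array, among them Elovl3, by which the array was picked. Cyp2d9 read 14.11 against 15.27 to 15.41, and Cyp4a12a 12.03 against 13.59 to 14.13, whereas Hsd3b5 and Mup20 lay within the range of the others. Of 4 tested genes higher in females, 3 lay above the other arrays, such as Cyp17a1 at 13.62 against 11.39 to 12.10. How many of all tested genes were lowest or highest on this array was not counted, so these counts have no background share beside them. Genes of the sex chromosomes were read as a check of the labelled sex. Xist was not well above background on it or on any of the other 23 arrays, and the Y-linked genes Ddx3y, Eif2s3y, Kdm5d and Uty lay within the range of those arrays.

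Over all mice the male-biased genes did not move as 1 group. Elovl3 rose with fasting in LWT while Hsd3b5 fell by 2.55 (adjusted p = 1.84e-06), and the other 6 were not called. In LKO mice Cyp4a12a and Cyp4a12b rose with fasting beside Elovl3, by 0.67 and 0.60, and Hsd3b5 fell by 4.58. With equal array weights, tried after the data were seen, neither Cyp4a12 gene was called (0.46, adjusted p = 0.142, and 0.38, adjusted p = 0.217), while without LKO_Fasted replicate 4 the values were 0.81 and 0.74. Between genotypes 2 of 8 were lower in fed LKO mice, namely Cyp4a12a (-1.27) and Cyp4a12b (-1.23), against 1.18% of all genes. In fasted LKO mice 3 of 8 were lower, against 2.28%, and none was higher in either state. Without LKO_Fasted replicate 4 the fasted count was 1, as Cyp4a12a (-0.57) and Cyp4a12b (-0.48) came under the fold required and Hsd3b5 was still called, at -1.99. With equal array weights it was 4, as Cyp2d9 was then called too (-0.64, adjusted p = 0.00519). The interaction was called for Hsd3b5, at -2.03, and without that array also for Cyp4a12a (0.70, adjusted p = 0.0149) and Cyp4a12b (0.76, adjusted p = 0.00452). Of the 4 female-biased genes tested, Cyp17a1 rose with fasting in both genotypes, by 0.71 and 0.79, though with equal array weights the LWT value was not called (0.62, adjusted p = 0.0517). Cyp2a4 fell with fasting in LKO (-1.204), was lower in fasted LKO mice (-1.05) and had an interaction of -1.09 (adjusted p = 0.0436).

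Several genes had more than 1 probe on the array. Elovl2, Elovl3, Elovl6 and Scd2 had 1 each, so their values have no second reading. The second probes of Elovl1 and of Elovl5 gave the same calls as the first in all comparisons, with 1.41 for the Elovl5 interaction (adjusted p = 0.00035). The remaining Elovl5 probe was dim and was not called, and the remaining Elovl1 probe was not well above background on any array. The second Scd1 probe, which the files place on the opposite strand, gave -1.51 for genotype in fed mice and the same calls. The second Fads3 probe gave -0.36 in LWT and -0.38 in LKO, under the fold required. A second Fads1 probe fell by 0.86 with fasting in LWT (adjusted p = 0.000147), unlike the brightest probe, and the other was not called, at -0.13. Of the 4 further Fads2 probes 1 was called for fasting in LKO, at 0.71, and none for the interaction, with values from 0.36 to 0.56.

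**Figure D3:**
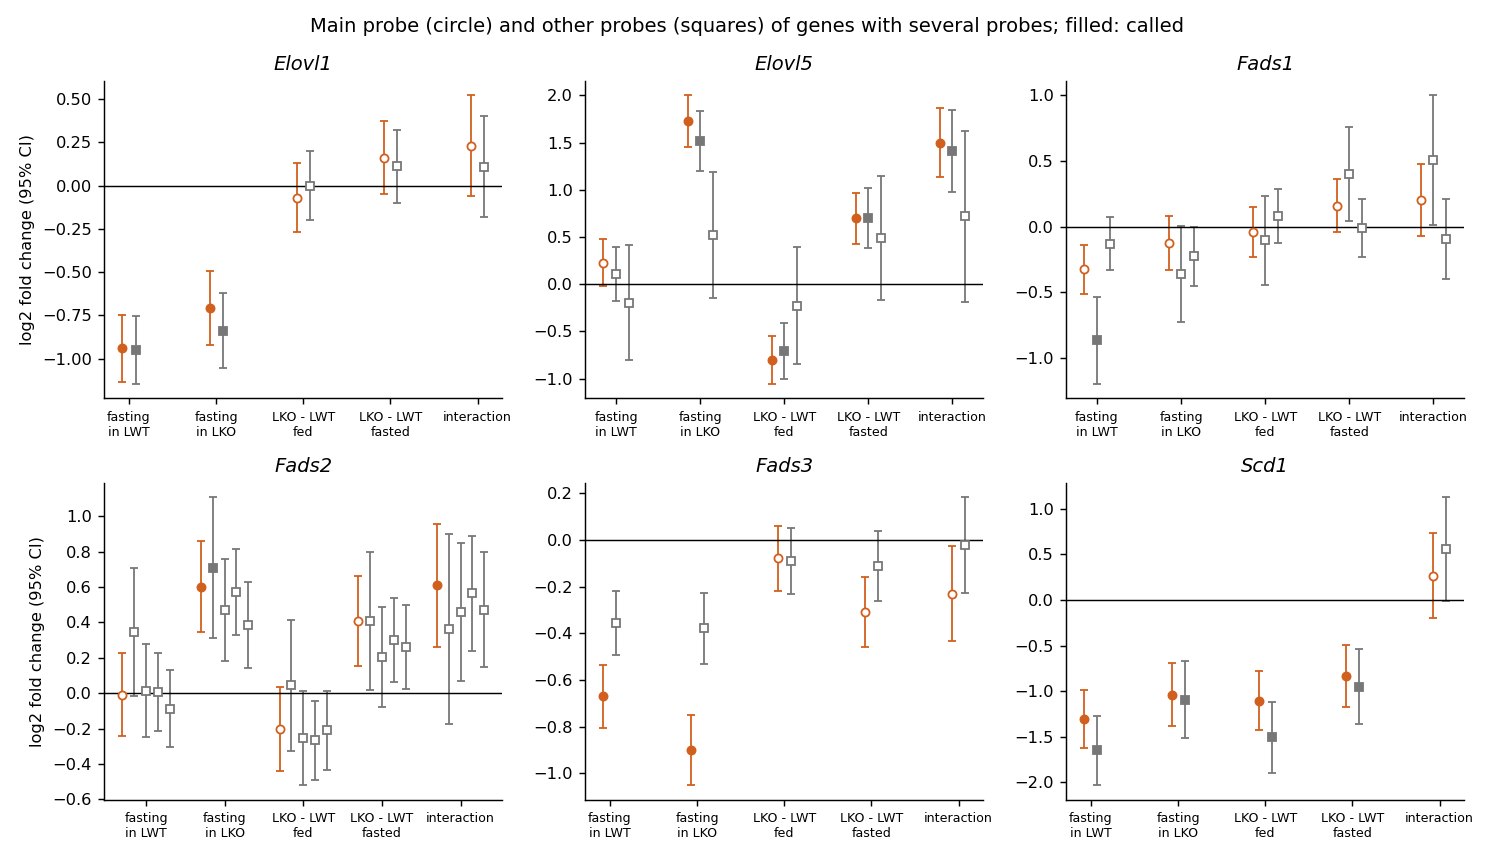
Log2 fold change with its 95% confidence interval (vertical axis, own scale per panel) of every tested probe of the 6 genes with several, for the 5 comparisons, with circles for the brightest probe, squares for the others and filled symbols for called values. Probes of Elovl1, Scd1 and 2 of the 3 Elovl5 probes lie close together, while 1 Fads1 probe falls further than the others in fasted LWT mice, at -0.86.

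The genes around these enzymes were read from lists, whose counts are to be set beside the shares of all tested genes called. With fasting these shares were 4.82% higher and 5.22% lower in LWT, and 5.9% and 6.88% in LKO. For genotype they were 2.66% higher and 1.18% lower in fed mice, and 1.78% and 2.28% in fasted mice. For the interaction the share was 1.55% each way. Substrate supply, the enzymes that make acetyl-CoA, malonyl-CoA and palmitate or remove malonyl-CoA, had 5 of 6 genes falling with fasting in LWT and 4 of 6 in LKO. Fatty acid synthase Fasn changed by -3.94 in LWT and by -2.94 in LKO on the log2 scale, ATP citrate lyase Acly by -3.01 and -2.44, and acetyl-CoA carboxylase Acaca by -2.13 and -1.36. Mlycd, which degrades malonyl-CoA, rose by 0.60 and 0.85. In fed LKO mice 4 of 6 were lower, with Fasn at -1.03 (adjusted p = 9.74e-05), Acly at -0.91 and Acss2 at -0.82. In fasted LKO mice only Acss2 of the 6 was lower, at -0.80. The interaction was above 0 for Acacb (1.099, adjusted p = 0.0361), Fasn (1.004, adjusted p = 0.00553) and Acaca (0.77, adjusted p = 0.00211). For Elovl6 it was 2.45, and for Scd1, which was not called, 0.27.

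The partners of the elongases complete each round by reduction and dehydration. None of 6 was called for fasting in LWT, for genotype in either feeding state or for the interaction. In LKO the dehydratases Hacd3 and Hacd1 rose with fasting, by 0.83 (adjusted p = 1.24e-07) and 0.59 (adjusted p = 1.64e-06). Hacd3 was above 0 in LWT too (0.40, adjusted p = 0.000311), under the fold required. Their interactions were likewise under it, at 0.42 (adjusted p = 0.0326) for Hacd3 and 0.53 (adjusted p = 0.00308) for Hacd1. Of the genes that bring electrons to the desaturases, 5 of 6 were tested. Cyb5a, the cytochrome b5 of the endoplasmic reticulum that serves the desaturases, was not called, at 0.04 in LWT and -0.27 in LKO. Cyb5b, the form of the outer mitochondrial membrane, fell in LWT (-1.297) and LKO (-1.15), and the cytochrome b5 reductase Cyb5r3 fell in LWT (-0.94) and LKO (-1.15) and was lower in fasted LKO mice (-0.62). Of the other elongase and desaturase genes 6 of 7 were tested. Scd3 fell with fasting in LWT (-2.12) and LKO (-1.62) and was lower in LKO in fed (-1.33) and fasted mice (-0.83). The dim Elovl7 was higher in fed LKO mice (0.63, adjusted p = 0.00453). Scd genes are close relatives, and whether their probes tell them apart was not tested.

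Among 11 regulators 2 rose and 3 fell with fasting in each genotype, against 4.82% and 5.22% of all genes in LWT and 5.9% and 6.88% in LKO. Srebf1, the gene of SREBP-1c, fell in LWT (-2.76) and LKO (-2.82). It was lower in LKO in fed mice (-0.62, adjusted p = 0.00208) and in fasted mice (-0.69, adjusted p = 0.00101), with an interaction of -0.06. Insig1 fell in LWT (-2.11) and LKO (-2.38). Insig2, which like Insig1 holds SREBP in the endoplasmic reticulum, rose by 1.93 in LWT and 2.68 in LKO, was lower in fed LKO mice (-0.63) and had a called interaction of 0.75 (adjusted p = 0.0126). The ChREBP gene Mlxipl fell in LWT (-0.92) and LKO (-0.81), and Ppara rose by 0.89 and 0.87. The LXR gene Nr1h3 was not called, with -0.10 and -0.09 for fasting. Beside these Srebf1 values stand the -3.55 of Elovl6 in LWT and its -1.10 in LKO.

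Peroxisomal chain shortening is the last step of docosahexaenoic acid synthesis after Elovl2. It had 2 of 8 genes rising with fasting in LWT and 5 of 8 in LKO, against 4.82% and 5.9% of all genes. The bifunctional enzyme Ehhadh rose by 2.63 and 4.23, and the thiolase Acaa1b by 0.63 and 1.95. The interaction was above 0 for Ehhadh (1.597, adjusted p = 0.00108), Acaa1b (1.32, adjusted p = 0.00174) and Abcd3 (0.67, adjusted p = 0.0039). In fed LKO mice Acaa1b was lower (-0.72), and in fasted LKO mice Ehhadh was higher by 1.34 and Acaa1b by 0.60. Abcd3, Hsd17b4 and Acaa1a were called for fasting in LKO and not in LWT, where Hsd17b4 (0.51, adjusted p = 8.11e-06) and Acaa1a (0.54, adjusted p = 3.92e-05) were above 0 and under the fold required. The interaction was not called for Hsd17b4 (0.56, adjusted p = 0.00342, under the fold required) or Acaa1a (0.36, adjusted p = 0.0956).

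Among 12 acyl-CoA ligases and phospholipid remodelling enzymes 2 rose and 1 fell with fasting in each genotype. The shares of all genes were 4.82% and 5.22% in LWT and 5.9% and 6.88% in LKO, and the list was not tested as a group. Acsl1 rose by 0.93 and 1.43, Slc27a2 rose by 0.65 and 0.91, and Acsl3 fell, with -1.27 and -0.90. None was called for genotype in fed mice. In fasted LKO mice Acsl4, which prefers arachidonic acid, was higher by 0.85 (adjusted p = 0.000202), and the interaction was above 0 for Acsl5, at 0.61 (adjusted p = 0.0172).

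**Figure D4:**
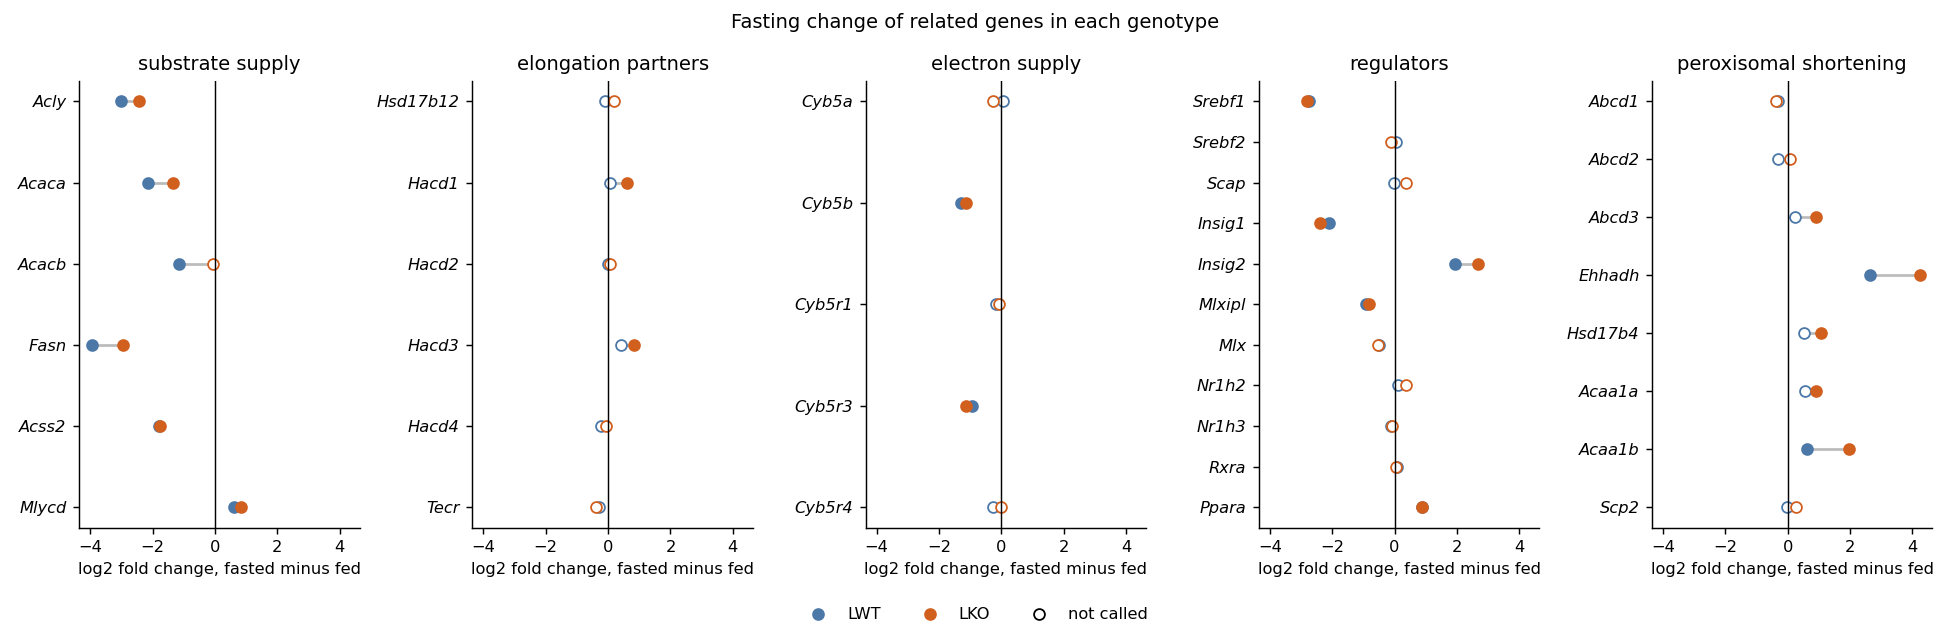
Log2 fold change with fasting (horizontal axis) in LWT and LKO for the tested genes of 5 lists, with filled points for called values and a line joining both genotypes of a gene. Fasn lies at -3.94 in LWT and -2.94 in LKO, the points of Srebf1 nearly coincide at -2.76 and -2.82, and Ehhadh reaches 4.23 in LKO.

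For each of the 10 genes, the tested gene with the most similar profile over the 24 arrays was found by the root-mean-square distance of log2 signals, each centred on its own mean, among 21342 genes with complete values. The nearest profile to Elovl1 was that of Actb, at 0.151, and to Scd1 that of 5033421B08Rik, at 0.29. Elovl6 was nearest to the unnamed transcript NAP092820-001, at 0.228, and Elovl5 to 4930525G20Rik, at 0.266. Elovl2 was nearest to Eya3, Fads1 to Dtx3, Fads2 to Psmd3, Fads3 to Lcmt1 and Scd2 to Rnf181, at 0.131 to 0.202. Elovl3 was nearest to Slc16a13, at 0.837. The distance is not scaled, so it grows with the spread of a gene over the arrays, which as an SD was 1.34 for Elovl3 and 0.312 for Fads2. Among the 10 genes themselves the smallest distance was that of Fads3 and Scd2, at 0.252 beside SDs of 0.453 and 0.511, followed by Elovl2 and Fads2, at 0.267 beside SDs of 0.356 and 0.312. Many other genes lay nearer. By distance Scd2 ranked 445 from Fads3 and Fads3 ranked 43 from Scd2, while Fads2 ranked 896 from Elovl2 and Elovl2 ranked 221 from Fads2. Elovl6, with an SD of 1.40, was 1.01 from its nearest, Scd1.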

How the data were processed

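Total liver RNA of 24 mice was labelled with Cy3 by the authors and hybridised to Agilent SurePrint G3 arrays with mm9 probe positions. Per the file headers, the deposited scanner files hold the median spot intensity read by Feature Extraction 10.10.1.1, not scaled between arrays. The deposited matrix holds log2 values that the authors filtered, corrected for washing bath and quantile normalized. It was used as an alternative and holds the probes of all 10 genes. Its filter rule and the bath of each array are not given in the sources used here.

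Of 56605 probes outside controls, 32197 were kept because they were well above background on at least 5 of 6 arrays of 1 group. Uneven or outlier spots were left out, which left 46 missing values, and repeated spots were averaged. Median signals were log2 transformed, quantile normalized and fitted with limma 3.58.1 (R 4.3.3) with terms for group and slide and with array weights. Slide stood in for the bath, and every group had 2 arrays on each of 3 slides. Two-sided p-values were adjusted by Benjamini-Hochberg over all kept probes. A gene was read from its probe with the highest mean signal. Fold changes come from the weighted fit and can depart from differences of raw means. Precision is limited by the number of arrays, each a separate mouse. The fit was tested on simulated data.

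The 10 genes and all lists were chosen with earlier results of these data known. Named genes outside the 10 are Pik3ca, 6 regulators, up to 3 called genes per list and comparison by size, and the nearest profile of each gene. Further ones are examples whose choice after seeing the values is stated or that complete a count, and Cyb5a, which was called in no comparison. 2 genes first placed on these lists are not reported here and were left out of their counts. Alternatives covered background correction, scaling, the dim-probe filter, array weights, slide and replicate terms, the choice of probe, the minimum fold and single arrays left out. Sequences came from RefSeq (GRCm38.p6), and figures were drawn with matplotlib.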

Additional observations from a re-analysis of the deposited data

Results flagged for a closer look

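In 40 sets of 6 arrays, 10 genes in 4 groups, the highest or lowest array was compared with the rest by Dixon's test at the 95% level, at which chance picks out about 1 in 20 sets. Elovl3 was far lower on LKO_Fasted replicate 4, at 9.76, than on the other arrays of its group. Elovl1 was higher on the same array, at 14.23. Elovl6 was higher on LKO_Fed replicate 3, at 13.43. Scd1 was lower on LWT_Fed replicate 4, at 16.99.

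The fasting change differed between genotypes, by the interaction and an adjusted p of at most 0.05, for Elovl6 at 2.45, Elovl5 at 1.499, Fads2 at 0.61 and Elovl2 at 0.50, the last under the fold required.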

How the results depend on the processing

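Each of the 10 genes has a value in each of the 5 comparisons. With the minimum fold kept, 19 of the 25 called values stayed called in the same direction in all settings that were fitted, and 6 lost the call in at least 1. Of the 25 not called, 24 stayed so, and Elovl2 for genotype in fasted mice passed in 3. The count of called genes for genotype in fasted mice went from 4 to 7 without a minimum fold change, as Elovl2, Fads2 and Fads3 then passed. The other counts stayed within 1.5 times of the reported ones in all settings run, among them the arrays left out one at a time. The deposited matrix gave the same 5 counts. The calls lost belonged to Elovl3 and Fads2 for fasting in LKO, the interaction of Fads2, Scd2 for genotype in fasted mice, and, with the mean of all probes, Fads3 for fasting in LWT and Elovl5 for genotype in fed mice. Within slide 1 the Elovl3 change with fasting in LKO was reversed, at -1.41. The slide row was added as a further term after the data were seen and changed no count. The same replicate numbers stand for different mice in each group, and deviations of same-numbered arrays correlated between -0.18 and 0.28 with a median of -0.03, so the numbers do not pair the samples. A fit with a replicate block gave 6, 9, 3, 4 and 3 called genes, as without it. With 6 mice per group, values near the fold required, such as those of Fads2, Scd2 and Elovl2, fall on either side of it. The causes were not tested.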
